A study of Rattus norvegicus with 34 samples.

Results

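The natriuretic peptide system was followed across the left ventricle (LV) and peripheral blood mononuclear cells (PBMCs) of rats after myocardial infarction (MI). Its 9 genes were chosen by name: the ligands Nppa, Nppb and Nppc, the receptors Npr1, Npr2 and Npr3, the processing proteases Corin and Furin, and the degrading protease Mme. Each of the 9 symbols was carried by a single transcript cluster (the set of probes that the array reads as a gene), out of 29214 in the table. Male Wistar rats had the proximal left coronary artery ligated, and in sham-operated rats the suture was passed but not tied. Tissue was taken 2 months later and hybridized to Affymetrix Rat Gene 1.0 ST arrays, a single array per rat and tissue. The LV groups were sham (n = 6), small infarct (S-MI, n = 6), moderate infarct (M-MI, n = 6) and large infarct (L-MI, n = 5), and the PBMC groups were L-MI (n = 5) and sham (n = 6). In sham rats the whole LV was used and in infarcted rats the part that looked unaffected, so infarction and the part sampled cannot be told apart.

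Atrial natriuretic peptide (ANP, from Nppa) and B-type natriuretic peptide (BNP, from Nppb) are hormones of the heart that are released when its wall is stretched, and they promote the excretion of sodium and widen vessels. Both act through Npr1, a receptor that makes cyclic GMP, while C-type natriuretic peptide (CNP, from Nppc) acts through Npr2. Npr3 removes all these peptides from the circulation. Corin, a membrane protease of cardiomyocytes, cuts pro-ANP into ANP. Furin, a convertase of the Golgi, cuts the precursors of BNP and CNP, and neprilysin, the product of Mme, breaks the peptides down. Nppa is described as largely silenced in the ventricle after birth and is a classic marker of the return of the fetal programme in heart failure. In the sham LV arrays here its signal still stood at the 95.2 to 98.0 percentile of all transcript clusters.

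Nppa and Nppb lie side by side on chromosome 5, with 0 annotated genes between them (RefSeq, assembly GRCr8). Their promoters are shown because the L-MI hearts lay above all other hearts for both genes, as described below. The stretch of Nppa covers the 250 bases before the start of the gene, chr5:163711934-163712183 on the plus strand. That of Nppb, chr5:163699758-163699954 on the plus strand, was ended at the outermost annotated start and holds 197 bases. Capitals mark matches, on either strand, to GATA (the core bound by GATA factors), to CATTCC (the MCAT motif of TEAD factors, printed as its reverse complement GGAATG where it lies on the minus strand) and to AAGTG (the core of the Nkx2-5 motif).
Nppa: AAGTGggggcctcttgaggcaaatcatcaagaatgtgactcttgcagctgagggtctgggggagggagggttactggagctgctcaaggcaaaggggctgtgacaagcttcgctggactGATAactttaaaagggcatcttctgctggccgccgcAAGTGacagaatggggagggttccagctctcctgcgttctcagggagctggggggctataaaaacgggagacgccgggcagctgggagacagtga
Nppb: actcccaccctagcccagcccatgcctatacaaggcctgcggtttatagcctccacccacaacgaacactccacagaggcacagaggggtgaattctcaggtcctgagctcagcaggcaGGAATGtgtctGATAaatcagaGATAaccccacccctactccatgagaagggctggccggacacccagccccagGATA

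In these windows Nppa held 1 GATA and 2 AAGTG matches, and Nppb held 3 GATA matches and 1 MCAT match, none of which overlapped. Across 33469 promoters of 250 bases, 55.9% held a GATA, 10.5% held 3 or more, 12.1% held the MCAT motif, 40.6% held AAGTG and 1.5% held a CArG box, the motif of serum response factor. No match to the CArG box was found in either window. The promoters of the other genes are not described, since for most of them the annotated gene already covers the window in the table. A match describes the letters and is not a binding site.

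The deposited values are log2 signals made with RMA (robust multiarray averaging), and a difference of 1 is a 2-fold change. PBMC arrays had medians of 6.97 to 7.01 and LV arrays medians of 6.52 to 6.61, and no gene's level is set against its level in the other tissue. For L-MI replicate 1 the deposited description names compensated injury although the title says large infarct, and its LV and PBMC arrays were both kept in the L-MI groups. On the first principal component of LV (17.5% of the variance), 4 arrays (2 of sham, replicates 4 and 6, and 2 of S-MI, replicates 4 and 5) lay from -138 to -112, apart from the other 19 at -52 to 165. Calls among the 9 genes that changed without these 4 arrays are given both ways. At the other end L-MI replicate 4 lay alone at 165, with the next array, S-MI replicate 3, at 64.8. L-MI replicate 4 was kept in those fits, which dropped sham and S-MI arrays only. Leaving it out by itself lost the call of Nppb in L-MI against S-MI (log2 difference 0.91, limma adjusted p = 0.0802). A fit without it and the 4 arrays together was not run. Ventricular cardiomyocyte markers had mean signals of 12.78 to 12.84 in L-MI and 12.79 to 12.81 in sham hearts, and T cell markers had 11.50 to 11.70 in L-MI and 11.47 to 11.65 in sham PBMCs. Both tissues therefore carried the markers of their labels. The PBMC arrays also carried platelet and erythroid markers, with mean signals of 10.80 to 12.04 in L-MI and 10.85 to 11.97 in sham. The part of these cells in the PBMC differences was not tested. In tissue RNA, fewer cells of a type and less RNA per cell cannot be told apart.

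In LV of rats with L-MI, Nppa and Corin rose and Mme fell against sham, while the other 6 genes did not pass the test. Nppa was 3.71-fold higher, Corin 1.38-fold higher and Mme 1.43-fold lower. A gene was called when limma gave it a 1.3-fold or larger difference with an adjusted p up to 0.05, and these 3 of 9 calls stand beside 3.22% of all transcript clusters called in the same comparison (2.08% higher and 1.14% lower). The median log2 difference was 0.02 over the 9 genes and -0.01 over all transcript clusters. Over the 4 LV groups together, limma's F test gave an adjusted p of 0.000293 for Nppa, 0.0139 for Corin, 0.0189 for Mme and 0.0402 for Npr3, with 0.149 for Nppb and at least 0.73 for the other 4 genes.

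**Figure D1:**
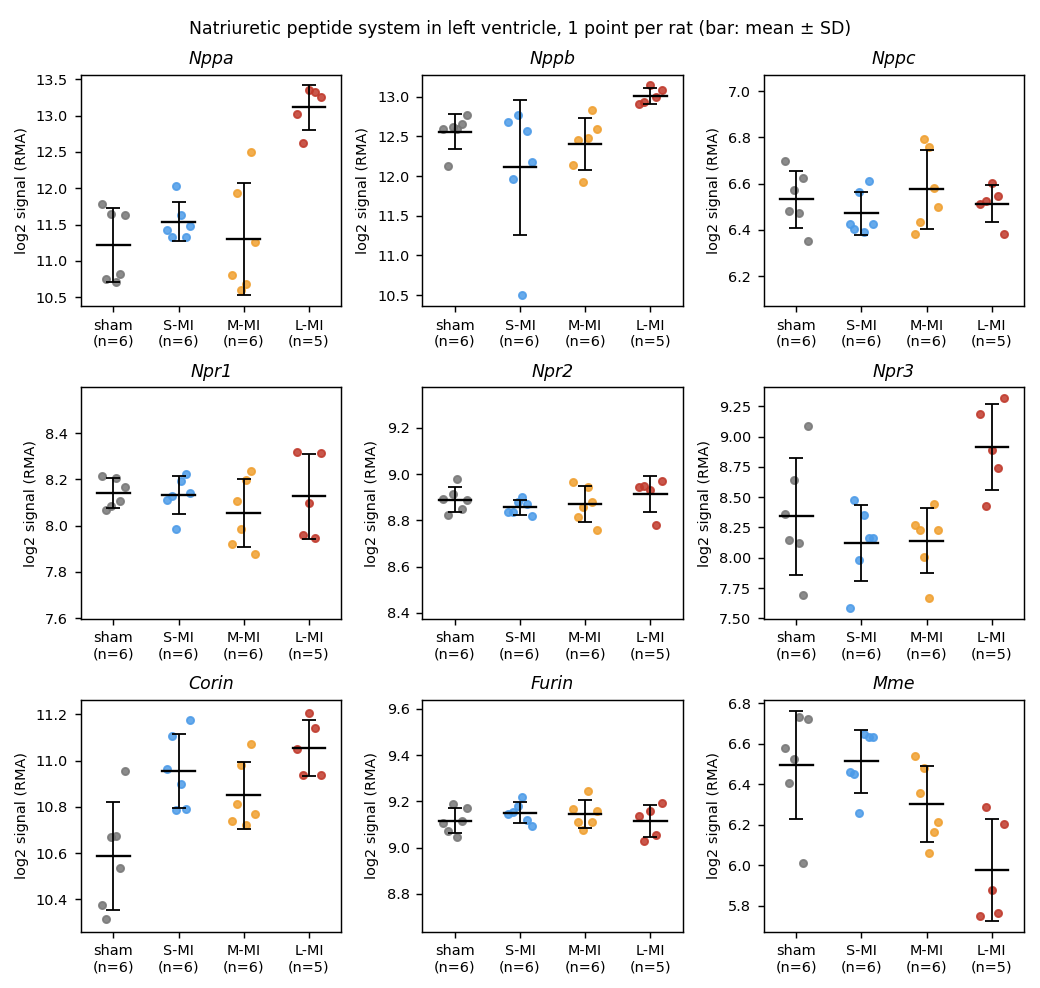
Log2 RMA signal of the 9 genes in left ventricle, 1 point per rat, in sham (n = 6), S-MI (n = 6), M-MI (n = 6) and L-MI (n = 5), with bars for the mean and SD, each panel on its own axis. The 5 L-MI hearts lie above all other hearts for Nppa (12.62 to 13.35) and Nppb (12.90 to 13.15), and 1 S-MI heart stands low for Nppb at 10.50.

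Among the ligands, Nppa (transcript cluster 10873899) had log2 signals of 13.02, 12.62, 13.35, 13.33 and 13.26 in the 5 L-MI hearts, against a lowest of 10.71, a median of 11.23 and a highest of 11.78 in the sham hearts. All L-MI hearts lay above all sham hearts. Of the 9 genes, 2 had groups that did not overlap in this comparison, as had 6.97% of all transcript clusters. The mean of Nppa was 13.11 ± 0.307 in L-MI (SD, n = 5) and 11.22 ± 0.513 in sham hearts (SD, n = 6), a log2 difference of 1.89 (SE 0.288, adjusted p = 0.000135). It was 1.87 without the 4 arrays apart on the first component (adjusted p = 0.00191). The sham hearts spread over a wider range than the L-MI hearts, with replicates 1, 3 and 6 high (11.78, 11.65 and 11.63) and replicates 2, 4 and 5 low (10.74, 10.71 and 10.82).

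Nppa did not pass the test in the smaller infarcts. In S-MI hearts Nppa had a lowest signal of 11.32, a median of 11.45 and a highest of 12.03, and in M-MI hearts a lowest of 10.60, a median of 11.03 and a highest of 12.50. The M-MI group was the most spread of the 4 (SD 0.772), since replicates 5 and 2 had 12.50 and 11.94 and the others at most 11.26. Even the highest M-MI heart stayed below the lowest L-MI heart. The direct comparisons gave log2 differences of 1.82 for L-MI against M-MI (SE 0.288, adjusted p = 0.00023) and 1.58 for L-MI against S-MI (SE 0.288, adjusted p = 0.00121). In mean level the order was sham, M-MI, S-MI and L-MI, of which the first 3 groups lay within 0.32 of each other and were not told apart by the test. Their adjusted p values were 0.958 for M-MI against sham, 0.915 for S-MI against sham and 0.729 for M-MI against S-MI.

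Nppb (10873895), the gene of the peptide measured in the clinic as BNP, had signals of 12.90, 12.93, 13.15, 12.99 and 13.08 in L-MI hearts, against a lowest of 12.12, a median of 12.61 and a highest of 12.77 in sham hearts. The groups did not overlap here either, and the L-MI hearts were close to each other. The means were 13.01 ± 0.103 in L-MI (SD, n = 5) and 12.56 ± 0.223 in sham hearts (SD, n = 6), a log2 difference of 0.45 (SE 0.269, 95% interval -0.11 to 1.01), or 1.37-fold. This did not pass the test over the 4 LV groups (adjusted p = 0.361). The model shares 1 estimate of the spread over the groups, and the S-MI hearts had an SD of 0.848 because replicate 4 lay at 10.50 while the others lay between 11.96 and 12.77. With only the L-MI and sham arrays in the fit the difference passed (adjusted p = 0.0157), and without S-MI replicate 4 the adjusted p was 0.0633. The difference was 0.51 without the 4 arrays apart on the first component (adjusted p = 0.0858).

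Against the other infarct groups, Nppb was higher in L-MI hearts by 0.61 relative to M-MI (SE 0.269, adjusted p = 0.214) and by 0.90 relative to S-MI (SE 0.269, adjusted p = 0.0412), of which the second passed. Without S-MI replicate 4 the difference from M-MI was 0.61 and passed (adjusted p = 0.0137), and that from S-MI was 0.58 and still passed (adjusted p = 0.0313). Without the 4 arrays apart on the first component the difference from M-MI passed (0.61, adjusted p = 0.021) and that from S-MI did not (0.61, adjusted p = 0.0545). The L-MI against S-MI call was lost without S-MI replicate 2, S-MI replicate 6 or any of the L-MI arrays (adjusted p between 0.0512 and 0.0865). The highest signal on an LV array was 13.97 to 14.09, close to the L-MI signals of Nppa and Nppb, and whether the top of the signal range compressed their differences was not tested.

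Nppc (10929606), the gene of CNP, had a flat signal. Its mean signal was 6.51 ± 0.0809 in L-MI (SD, n = 5) and 6.53 ± 0.124 in sham hearts (SD, n = 6). The log2 difference of -0.02 had a 95% interval of -0.17 to 0.13. All LV arrays lay between 6.35 and 6.79, near the array medians. RMA gives no detection call, so whether the ventricle expresses Nppc cannot be read from this signal.

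Among the receptors, Npr3 was the only gene called, and its call depended on the group it was set against. Npr3 (10821991), the clearance receptor, had signals of 9.19, 8.43, 8.89, 8.74 and 9.32 in L-MI hearts, against a lowest of 7.69, a median of 8.25 and a highest of 9.09 in sham hearts. The groups overlapped, with sham replicate 6 above 3 of the 5 L-MI hearts. The means were 8.91 ± 0.355 in L-MI (SD, n = 5) and 8.34 ± 0.482 in sham hearts (SD, n = 6), and the log2 difference of 0.57 (SE 0.205, 1.49-fold) did not pass (adjusted p = 0.0856). It passed without sham replicate 6 (0.72, adjusted p = 0.0171), without L-MI replicate 2 (0.69, adjusted p = 0.0353), with array weights (0.64, adjusted p = 0.0308) and without the 4 arrays that stand apart on the first component (0.70, adjusted p = 0.0484).

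Against the smaller infarcts the Npr3 difference was larger and passed. The S-MI hearts had a lowest signal of 7.58, a median of 8.16 and a highest of 8.48, and the M-MI hearts a lowest of 7.67, a median of 8.23 and a highest of 8.44. Only L-MI replicate 2, at 8.43, reached into these ranges. L-MI was higher by 0.77 relative to M-MI (SE 0.205, adjusted p = 0.02) and by 0.79 relative to S-MI (SE 0.205, adjusted p = 0.0177). The first call was lost without M-MI replicate 4, L-MI replicate 1 or L-MI replicate 5 (adjusted p of 0.0502, 0.0664 and 0.0736), and the second without L-MI replicate 1 or 5 (0.0552 and 0.0616). Npr3 had lower means in S-MI (8.12) and M-MI (8.14) than in sham hearts (8.34), and neither difference passed (-0.22, adjusted p = 0.918, and -0.20, adjusted p = 0.811). Leaving out 1 array in turn gave -0.35 to -0.07 for S-MI and -0.33 to -0.05 for M-MI, with the values nearest 0 without sham replicate 6 and those farthest from 0 without sham replicate 5.

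The guanylate cyclase receptors did not pass in any LV comparison. Npr1 (10824655), the receptor of ANP and BNP, had a mean of 8.13 ± 0.183 in L-MI (SD, n = 5) and 8.14 ± 0.0636 in sham hearts (SD, n = 6), a log2 difference of -0.01 with a 95% interval of -0.17 to 0.14. The L-MI hearts were spread, with a lowest of 7.95 and a highest of 8.32, and surrounded the sham hearts, which lay between 8.07 and 8.22. Npr2 (10868552), the receptor of CNP, had 8.91 ± 0.0774 in L-MI (SD, n = 5) and 8.89 ± 0.0545 in sham hearts (SD, n = 6), a difference of 0.02 with an interval of -0.07 to 0.12. The intervals of both reach no further than 0.17 from 0 in either direction, so a change as large as the 1.3-fold threshold lies outside them.

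Of the processing proteases, Corin rose and Furin did not pass. Corin (10772490) had signals of 11.05, 10.94, 11.21, 11.14 and 10.94 in L-MI hearts, against a lowest of 10.31, a median of 10.60 and a highest of 10.96 in sham hearts. Only sham replicate 6 reached the L-MI range, just above its 2 lowest hearts. The means were 11.05 ± 0.121 in L-MI (SD, n = 5) and 10.59 ± 0.233 in sham hearts (SD, n = 6), a log2 difference of 0.47 (SE 0.0999, adjusted p = 0.0032). Corin was called under every alternative tried for this comparison, with log2 differences between 0.41 and 0.58.

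In the smaller infarcts Corin lay above most sham hearts without passing the test. The S-MI hearts had a lowest of 10.79, a median of 10.93 and a highest of 11.18, and the M-MI hearts a lowest of 10.72, a median of 10.79 and a highest of 11.07. All 12 of these hearts lay above 5 of the 6 sham hearts. The log2 differences from sham were 0.37 for S-MI (SE 0.0952, unadjusted p = 0.000838, adjusted p = 0.408) and 0.26 for M-MI (SE 0.0952, unadjusted p = 0.0116, adjusted p = 0.689), and neither passed over all transcript clusters. L-MI was not told apart from S-MI (0.10, adjusted p = 0.609) or from M-MI (0.20, adjusted p = 0.271). Without the 4 arrays apart on the first component, which include sham replicate 6, the L-MI difference from sham was 0.58 (adjusted p = 0.00107). In the same limma fit the difference from sham was 0.54 for S-MI (unadjusted p = 3.86e-05, adjusted p = 0.376). It was 0.38 for M-MI (unadjusted p = 0.00061), and neither passed. L-MI was again not told apart from S-MI (0.045, adjusted p = 0.886) or from M-MI (0.20, adjusted p = 0.172).

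Furin (10723114) had a mean of 9.11 ± 0.0702 in L-MI (SD, n = 5) and 9.12 ± 0.0545 in sham hearts (SD, n = 6). The 95% interval of the log2 difference ran from -0.09 to 0.09, and all 23 LV arrays lay between 9.03 and 9.24.

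The degrading protease Mme (10815679) was lower after a large infarct. Its signals were 5.75, 6.29, 5.88, 5.76 and 6.20 in L-MI hearts, against a lowest of 6.01, a median of 6.55 and a highest of 6.73 in sham hearts. The groups overlapped through sham replicate 5, which lay below L-MI replicates 2 and 5, while the other sham hearts lay at 6.41 or above. The means were 5.98 ± 0.253 in L-MI (SD, n = 5) and 6.49 ± 0.266 in sham hearts (SD, n = 6), a log2 difference of -0.52 (SE 0.125, adjusted p = 0.00804). Without the 4 arrays apart on the first component the difference was -0.40 and no longer passed (adjusted p = 0.0798).

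Mme had a mean of 6.51 ± 0.154 in S-MI (SD, n = 6) and 6.30 ± 0.188 in M-MI hearts (SD, n = 6). L-MI was lower than S-MI by a log2 difference of -0.54 (SE 0.125, adjusted p = 0.00864), and lower than M-MI by -0.33 (SE 0.125, adjusted p = 0.129), of which only the first passed. The S-MI call was lost as well without the 4 arrays apart on the first component (-0.47, adjusted p = 0.0553). M-MI and sham were not told apart (-0.19, adjusted p = 0.735, and -0.08 without the 4 arrays). All LV signals of Mme lay between 5.75 and 6.73, around or below the array medians, and RMA gives no detection call.

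**Figure D2:**
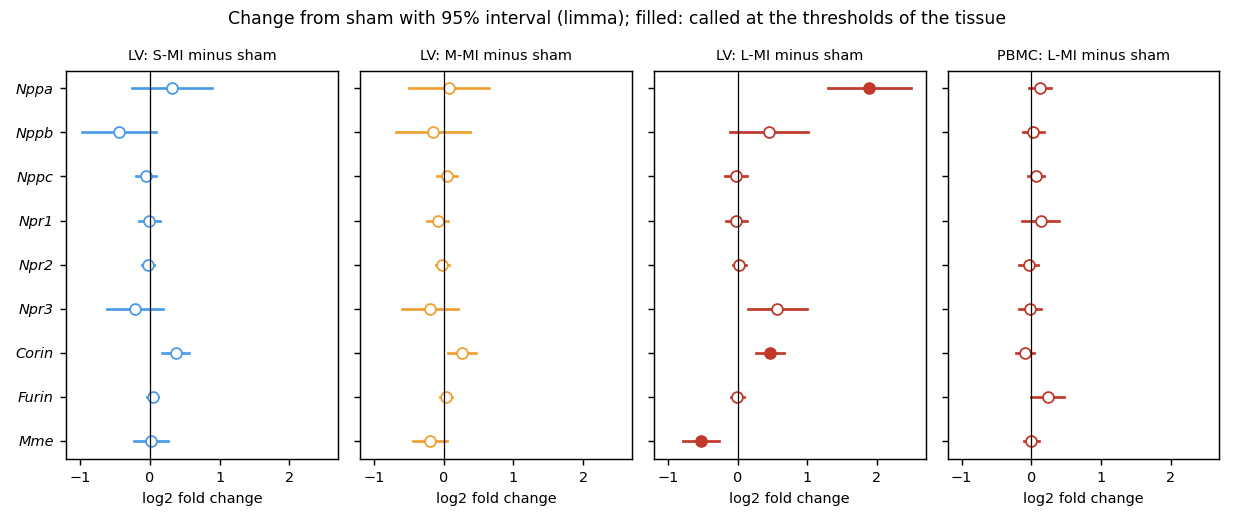
Log2 fold change of each of the 9 genes against sham (points) with its 95% interval from limma (lines), for S-MI, M-MI and L-MI in left ventricle and L-MI in PBMCs, filled where called. Nppa (1.89), Corin (0.47) and Mme (-0.52) are filled in L-MI hearts, and no point is filled in S-MI, M-MI or PBMCs.

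Counted over the 9 genes, calls in LV were made in the comparisons that include L-MI. In L-MI against M-MI, 2 of 9 were called, both higher (Nppa and Npr3), beside 2.68% of all transcript clusters (1.99% higher). In L-MI against S-MI, 4 of 9 were called (Nppa, Nppb and Npr3 higher, Mme lower), beside 2.48% (1.57% higher and 0.911% lower). Nppa and Nppb were the 2 genes whose groups did not overlap in each of these, as did not 4.87% of all transcript clusters in L-MI against M-MI and 4.63% in L-MI against S-MI. In S-MI against sham, M-MI against sham and M-MI against S-MI 0 of 9 were called by limma, by limma-trend or by the analysis of variance without moderation, beside 0% of all transcript clusters in each. At an unadjusted p under 0.05, Corin alone stood in S-MI against sham (1 of 9, background 6.33%) and in M-MI against sham (1 of 9, background 7.03%), and 0 of 9 in M-MI against S-MI (background 12.5%). The L-MI comparisons share their L-MI arrays and those with sham share the sham arrays, so they are not independent.

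Within the groups, the 9 genes did not vary together beyond what the correction allowed. Of 36 pairs of genes, 0 passed after Benjamini-Hochberg adjustment of the permutation p values over the pairs, when deviations from the group means were correlated over the 23 LV arrays. The largest Pearson r was that of Nppa with Npr3, with r = 0.509 (permutation p = 0.0135, adjusted p = 0.442) and Spearman rho = 0.497 (permutation p = 0.0224, adjusted p = 0.403), and r was 0.505 without the 2 arrays farthest from the median of Nppa. Nppc and Npr3 ran opposite and had the largest Spearman rho in size, with r = -0.479 (permutation p = 0.0246, adjusted p = 0.442) and rho = -0.517 (permutation p = 0.0142, adjusted p = 0.403), and r was -0.496 without the 2 farthest arrays. The neighbours Nppa and Nppb had r = 0.290 (permutation p = 0.0843, adjusted p = 0.465) and rho = 0.390 (permutation p = 0.0676, adjusted p = 0.457), and r = 0.219 without the 2 farthest arrays.

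**Figure D3:**
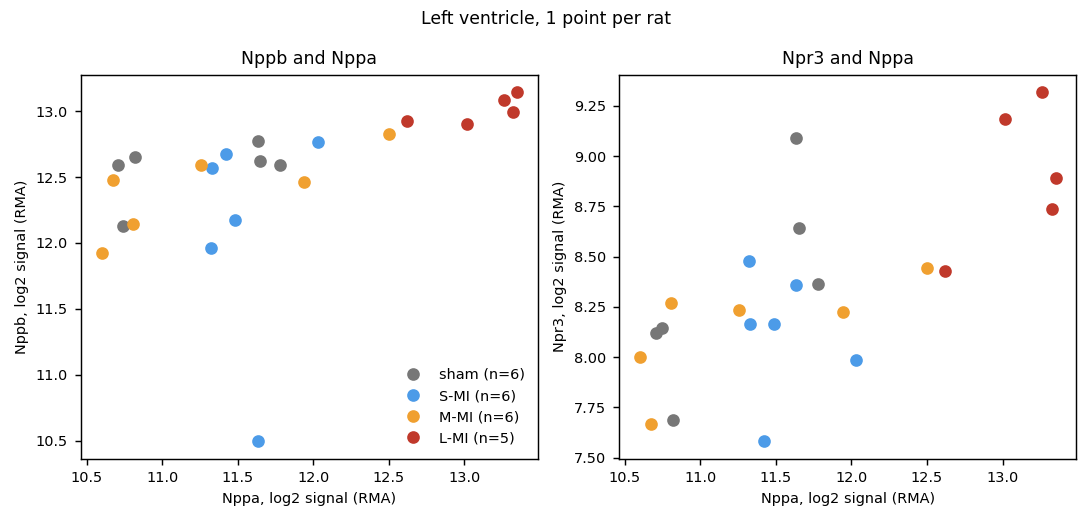
Log2 signal of Nppb (left) and Npr3 (right) against that of Nppa, 1 point per rat, in left ventricle of sham (n = 6), S-MI (n = 6), M-MI (n = 6) and L-MI (n = 5) rats. The L-MI hearts lie apart to the right for Nppa, 1 S-MI heart is low for Nppb only (10.50, with Nppa at 11.63), and L-MI replicate 2 has the lowest Nppa (12.62) and Npr3 (8.43) of its group.

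The array held transcripts whose course over the 23 LV arrays resembled that of the called genes, measured by Pearson r as a description. For Nppa the nearest were Slc6a6 (r = 0.924), the taurine transporter, Pam (0.913), the enzyme that amidates peptides and a main membrane protein of atrial granules, and Ifitm1 (0.910), an interferon-induced membrane protein. Their r was 0.702, 0.706 and 0.759 without the L-MI arrays. For Corin the nearest were Ucp2 (0.829), a carrier of the inner mitochondrial membrane, Tmem165 (0.779) and Dkk3 (0.761). Without the L-MI arrays these had 0.819, 0.773 and 0.813. For Mme the nearest were Triap1 (0.874), Armc8 (0.871) and Coa7 (0.868), with 0.830, 0.799 and 0.782 without the L-MI arrays.

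Within the groups the nearest genes were others. By deviations from the group means, Nppa lay closest to Efhd2 (r = 0.840), Klf16 (0.772) and Hamp (0.726), the gene of the iron hormone hepcidin. Corin lay closest to Or6c33b (0.736), Padi4 (0.734) and Marchf3 (0.732). Mme lay closest to Spata24 (0.826), Copb2 (0.812) and Morn4 (0.785). By signals instead of deviations, and without the L-MI arrays, r was 0.830, 0.692 and 0.694 for the genes nearest Nppa. For those nearest Corin it was 0.355, 0.403 and 0.453, and for those nearest Mme 0.728, 0.759 and 0.781. The measures differ, so the part of the L-MI arrays in the within-group r was not tested.

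Other genes of the pathway were read from 5 lists, and few of them were called in L-MI against sham. The list of cGMP signalling holds the soluble guanylate cyclases, the cGMP-dependent kinases, the phosphodiesterases that break cGMP down and their targets. None of its 20 measured genes was called in either direction, and its median log2 difference was -0.02. The 3 with the smallest p had an adjusted p below 0.05 but a fold below 1.3: Pde1b (6.51 ± 0.0954 in L-MI and 6.77 ± 0.0572 in sham hearts, -0.27, adjusted p = 0.0115), Gucy1a2 (-0.24, adjusted p = 0.0338) and Pde1a (0.30, adjusted p = 0.0392). Pde1a and Pde1b are calcium-dependent phosphodiesterases, and Gucy1a2 is a subunit of the soluble guanylate cyclase.

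The list of other convertases and peptidases also holds osteocrin (Ostn), a second ligand of Npr3. Of the list's 15 genes 13 were measured and 1 was called. Dpp4, a membrane peptidase that trims BNP among other peptides, fell to 7.27 ± 0.181 in L-MI hearts (SD, n = 5), against 7.87 ± 0.187 in sham hearts (SD, n = 6), a log2 difference of -0.60 (SE 0.125, adjusted p = 0.00231). It was also lower in L-MI than in M-MI (-0.47, adjusted p = 0.021) and S-MI hearts (-0.68, adjusted p = 0.00122). The convertase Pcsk5 had a difference of 0.19 (adjusted p = 0.0545) and Ace, the angiotensin-converting enzyme, one of 0.22 (adjusted p = 0.244), and neither passed.

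Of the 8 genes of secretory granules, 0 were called. Pam had 12.68 ± 0.0847 in L-MI (SD, n = 5) and 12.38 ± 0.0577 in sham hearts (SD, n = 6), a log2 difference of 0.30 (SE 0.0488, adjusted p = 0.000227) that lay below the fold threshold. Scg3 (-0.21, adjusted p = 0.156) and Cpe (0.08, adjusted p = 0.462) did not pass. The other granule genes had signals below the array medians.

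Of the cardiac transcription factors that are known to act on the natriuretic peptide promoters, 17 of 18 were measured and 0 were called, with a median log2 difference of -0.03. Nkx2-5 (-0.21, adjusted p = 0.013), Myocd, a coactivator of serum response factor (0.21, adjusted p = 0.0205), and Nfatc3 (-0.18, adjusted p = 0.0316) had the smallest p, each below a fold of 1.3. The 2 GATA factors on the list, which were looked at after the promoters, had 0.14 for Gata4 (adjusted p = 0.172) and -0.15 for Gata6 (adjusted p = 0.177).

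The list named for the fetal programme, the genes that the stressed ventricle expresses again, held the most calls of the 5 lists. Its counts and median take all genes of the list together, whatever direction each is known to take. Of 16 genes 15 were measured, 3 were called higher and 0 lower, and the median log2 difference was 0.22. The 3 genes called were all channels. Cacna1g, a T-type calcium channel, had 8.32 ± 0.345 in L-MI (SD, n = 5) and 7.02 ± 0.156 in sham hearts (SD, n = 6), a log2 difference of 1.297 (SE 0.127, adjusted p = 1.23e-06). The other 2 calls were outside the rule for naming genes and were picked out after their values were seen: the pacemaker channel Hcn4 (1.07, SE 0.296, adjusted p = 0.0223) and the T-type channel Cacna1h (0.50, SE 0.154, adjusted p = 0.0431). Acta2, smooth muscle actin (0.30, adjusted p = 0.00162), and Eno1, an enolase (0.22, adjusted p = 0.0028), lay below the fold threshold. None of the genes of the 5 lists was called in S-MI against sham or in M-MI against sham, as none was among all transcript clusters.

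**Figure D4:**
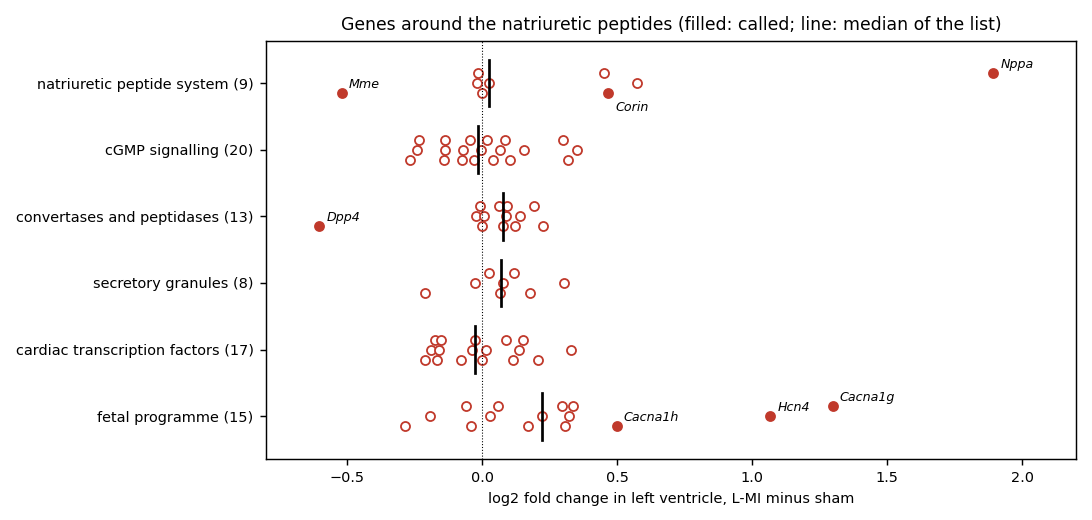
Log2 fold change in left ventricle of L-MI against sham for the 9 genes of the natriuretic peptide system and for the measured genes of 5 related lists, 1 point per gene, filled where called, with a line at each list's median. Nppa at 1.89 lies beyond all other points, followed by Cacna1g at 1.297 and Hcn4 at 1.07, and Dpp4 (-0.60) and Mme (-0.52) are the called points below 0.

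Markers of other cells moved with the same comparison. All 8 macrophage and monocyte markers were called higher in L-MI, with a mean signal of 8.43 to 9.001 in L-MI and 7.83 to 8.14 in sham hearts. Of the fibroblast markers 5 of 8 were called higher (9.46 to 10.14 in L-MI and 8.81 to 9.05 in sham hearts), and of the smooth muscle and pericyte markers 2 of 6 (9.82 to 10.10 in L-MI and 9.53 to 9.75 in sham hearts). None of the 7 measured endothelial markers was called (9.85 to 9.92 in L-MI and 9.91 to 10.10 in sham hearts). All 7 had lower means in L-MI, with a median log2 difference of -0.13, and Tek (-0.17, adjusted p = 0.0393) lay below the fold threshold. Of the ventricular cardiomyocyte markers 1 of 8 was called, Irx4, which was higher (0.63, adjusted p = 6.56e-06). Of the other 7, 6 had lower means in L-MI, with Myh6, the alpha myosin heavy chain (-0.29, adjusted p = 0.00472), and Tnni3, cardiac troponin I (-0.12, adjusted p = 0.0356), below the fold threshold. The part of these shifts in the changes of Nppa, Corin and Mme was not tested.

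Atrial tissue is rich in Nppa, so its markers were read beside it. Of 8 measured atrial markers 1 was called higher (Dkk3, 0.88) and 2 lower (Kcnj3, -0.44, and Stard10, -0.39), and the list's mean signal was 7.92 to 9.03 in L-MI and 7.88 to 8.37 in sham hearts. L-MI replicate 1 stood apart, with Myl7, the atrial light chain, at 11.91 and Sln, sarcolipin, at 9.67. The other L-MI hearts had 8.001 to 8.64 for Myl7 and 5.54 to 6.13 for Sln, within the sham ranges of 7.30 to 10.63 and 5.42 to 6.43. Bmp10, the marker of this list with the lowest signal, lay between 4.72 and 5.23 in L-MI and between 4.61 and 4.90 in sham hearts. Without L-MI replicate 1 the log2 difference of Nppa from sham was 1.92 (adjusted p = 0.000497), that of Corin 0.47 (adjusted p = 0.00872) and that of Mme -0.46 (adjusted p = 0.0328). All 3 were called. The calls lost without this array were Npr3 against M-MI (0.70, adjusted p = 0.0664) and against S-MI (0.72, adjusted p = 0.0552). Nppb against S-MI was lost as well (0.93, adjusted p = 0.0669).

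In PBMCs of L-MI rats, 0 of the 9 genes were called against sham, by limma with the thresholds of that tissue (1.2-fold and p up to 0.05, unadjusted), and 0 also under limma-trend and the analysis of variance without moderation. In the same comparison 0.924% of all transcript clusters were called. No gene had an unadjusted p under 0.05, as had 3.77% of all transcript clusters. Furin came closest. It had 10.46, 10.64, 10.34, 10.01 and 10.42 in L-MI cells, against a lowest of 9.95, a median of 10.10 and a highest of 10.37 in sham cells.

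The Furin groups overlapped, with L-MI replicates 3 and 4 inside the sham range. The means were 10.37 ± 0.23 in L-MI (SD, n = 5) and 10.14 ± 0.182 in sham PBMCs (SD, n = 6), and the log2 difference of 0.24 (SE 0.111, 95% interval -0.01 to 0.48) gave an exact permutation p of 0.0952 (two-sided, 462 splits). Furin passed the threshold when PBMC sham replicate 5 (0.28), PBMC sham replicate 6 (0.28) or PBMC L-MI replicate 4 (0.33) was left out, and its adjusted p over all transcript clusters was at least 0.93 in each of these fits. The exact permutation test allows no p below 0.00216 with these group sizes.

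The other 8 genes differed by at most 0.13 in PBMCs. The largest were Npr1, with 7.31 ± 0.245 in L-MI (SD, n = 5) and 7.18 ± 0.21 in sham PBMCs (SD, n = 6, exact permutation p = 0.351), and Nppa, with 6.18 ± 0.14 in L-MI (SD, n = 5) and 6.05 ± 0.109 in sham PBMCs (SD, n = 6, exact permutation p = 0.141). Nppb had 6.40 ± 0.0943 in L-MI (SD, n = 5) and 6.37 ± 0.128 in sham PBMCs (SD, n = 6), with a 95% interval of the log2 difference of -0.12 to 0.18. In all PBMC arrays the signals of Nppa, Nppb, Npr2, Npr3, Corin and Mme lay below the array medians, from 4.27 to 6.61, and whether blood cells express these genes cannot be read from them.

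**Figure D5:**
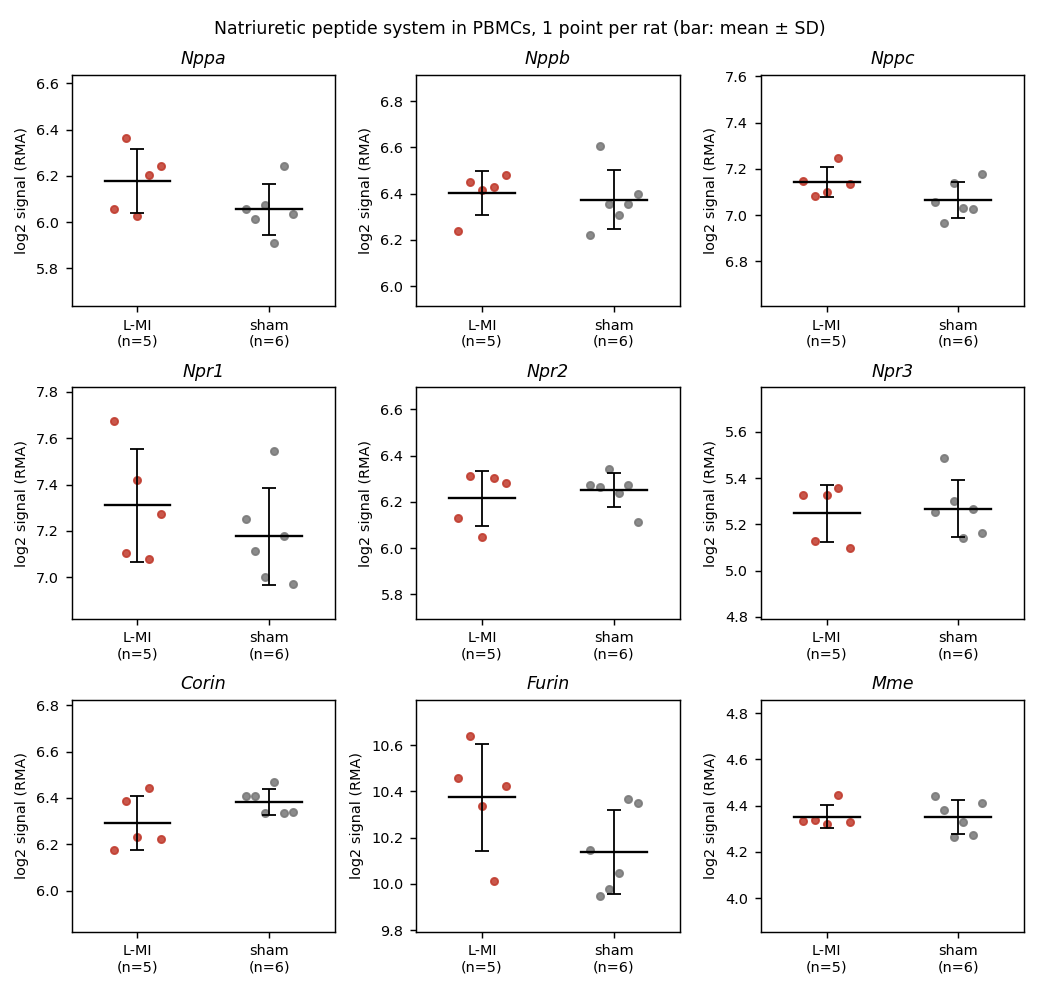
Log2 RMA signal of the 9 genes in PBMCs, 1 point per rat, in L-MI (n = 5, left) and sham (n = 6, right), with bars for the mean and SD, each panel on its own axis. The groups overlap for every gene. For Furin 4 of the 5 L-MI points lie at 10.34 or above, as do sham replicates 5 and 6 (10.37 and 10.35).

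The change after a large infarct was then compared between the tissues with an interaction term in limma over 22 arrays, as the log2 difference of L-MI against sham in LV minus that in PBMCs. It passed for Nppa (1.77, SE 0.251, adjusted p = 0.000275) and Corin (0.56, SE 0.124, adjusted p = 0.0147), 2 of the 9 genes beside 2.55% of all transcript clusters. For Nppa the change was 1.89 in LV and 0.12 in PBMCs, and for Corin 0.47 in LV and -0.09 in PBMCs. Since the PBMC signals of both lay below the array medians and their expression there cannot be read, the term mainly carries the LV change and does not show how blood cells respond. Mme had an interaction of -0.52 (SE 0.154, adjusted p = 0.0771) and Nppb one of 0.42 (SE 0.125, adjusted p = 0.0798), and neither passed. For Npr3 it was 0.59 (SE 0.249, adjusted p = 0.283) and for Furin -0.24 (SE 0.126, adjusted p = 0.44). By the study's methods heart and blood were both taken from the rats, but the deposited text does not say which LV and PBMC arrays belong together. The term takes all arrays as independent, so its SE and p leave out any pairing by rat.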

How the data were processed

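RNA of left ventricle (LV, 23 arrays) and PBMCs (11 arrays) was hybridized to Affymetrix Rat Gene 1.0 ST arrays. The authors deposited log2 signals from RMA, computed in the Partek software (versions not given in the sources used here). No source names the log base, and log2 was assumed because that is what RMA returns. Signals carry no depth, and the number of arrays limits the precision. Samples were grouped by their titles. The platform annotation gave 1 symbol to 15310 transcript clusters, several to 323, which were not used, and none to 13581.

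All 29214 transcript clusters were fitted with limma 3.58.1 in R 4.3.3. A single LV model over 23 arrays gave every comparison of LV groups. Calls there needed a 1.3-fold difference or more and a p of 0.05 or less after Benjamini-Hochberg adjustment. The PBMC model over 11 arrays called genes from 1.2-fold with an unadjusted p of 0.05 or less, and each gene's difference in means had an exact permutation test. These thresholds follow the study's methods. The interaction of tissue and infarct used 22 arrays and an adjusted p of 0.05 or less. Pairs of genes were tested with 100000 permutations within groups. The fits were tested on simulated data. Python 3.11.15, scipy 1.17.1 and matplotlib 3.10.9 were used for correlations, promoters and figures.

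The genes, lists and tests were chosen with earlier results of these data known. Named in the text are the 9 genes, up to 3 genes of smallest p per list, and the 3 nearest transcript clusters of each gene called in LV. Of 151 list genes 141 were measured. No protein sequences or genome were used, so the peptides' ring was not searched. The results were recomputed with an unmoderated analysis of variance, limma-trend, array weights, median centring, repeated quantile normalization, without the 30% dimmest transcript clusters, with the replicate number as a block, with 2 groups only, without a fold threshold in LV, with adjusted p in PBMCs, and without each array in turn. Leaving out S-MI replicate 4, or the 4 arrays apart on the first component, was added after the data had been seen. The titles number the replicates alike in every group and do not say that a number marks a rat or batch.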

Additional observations from a re-analysis of the deposited data

Results flagged for a closer look

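Within a group of 4 to 6 arrays, a value was singled out when its gap to the nearest other array took an unusually large part of the group's range (Dixon's 95% limit). Of 54 groups tested over the 9 genes, 5 held such a value, and chance marks about 1 in 20 groups. In LV, Nppb was lowest at 10.50 in S-MI replicate 4 and at 12.12 in sham replicate 2, and Npr2 was lowest at 8.78 in L-MI replicate 4. In PBMCs of L-MI rats, Nppb was lowest at 6.24 in replicate 1, and Mme was highest at 4.44 in replicate 4.

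The interaction term, the log2 difference of L-MI against sham in LV minus that in PBMCs, passed for Nppa (1.77, adjusted p = 0.000275) and for Corin (0.56, adjusted p = 0.0147). In PBMCs the signals of both genes lay below the array medians, where expression cannot be read, so the term mainly carries the LV change. Both genes kept an adjusted p of at most 0.05 for this term under every alternative tried, including each array left out in turn.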

How the results depend on the processing

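The number of arrays limits what could be called. Without the 4 arrays apart on the first component, 2 of the 9 genes were called in L-MI against S-MI. With each array left out in turn the counts of the 9 genes called were 3 to 4 in L-MI against sham, 1 to 3 in L-MI against M-MI, 2 to 4 in L-MI against S-MI, 0 to 1 in PBMCs, 2 to 3 in the interaction, and 0 to 0 in the other comparisons. The added calls of the interaction came without LV sham replicate 5 (Mme, -0.62), LV sham replicate 6 (Nppb, 0.47) or LV L-MI replicate 2 (Mme, -0.60). The analysis of variance without moderation lost Nppb in L-MI against S-MI (adjusted p = 0.0642), and so did a fit of only the 2 groups compared (0.161), while such a fit added Nppb in L-MI against M-MI (0.0217). Without the 4 arrays, L-MI against S-MI lost Nppb (0.61, adjusted p = 0.0545) and Mme (-0.47, adjusted p = 0.0553), and L-MI against M-MI gained Nppb (adjusted p = 0.021). Nppa was called in every fit of L-MI against another LV group. No pair of genes passed after median centring or without the L-MI arrays. Other transcript clusters of a gene could give no value, since each gene has 1.

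Over 9 pairs of groups, LV with PBMC included, the deviations of samples of the same number had r between -0.26 and 0.26, and 12 of 49 samples correlated best with their own number (at most 4 of 6 in a pair of groups, sham LV with sham PBMC). The numbers were not taken to pair the samples. With the replicate block, 1 of the 9 genes was called in PBMCs (Furin, 0.28), and over all transcript clusters 457 against 270 were called in PBMCs, 304 against 745 in the interaction and 928 against 941 in L-MI against sham in LV. No other call of the 9 genes changed. Median centring gave 325 higher and 437 lower in the interaction, against 406 and 339.

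Differences that were not called changed sign under some alternatives, and the cause was not tested. Of these Nppb in M-MI against S-MI was 0.30 with all arrays and -0.027 without S-MI replicate 4. With array weights the log2 values were Npr1 0.018 and Furin 0.0053 in L-MI against sham, Nppa -0.020 and Nppc -0.000597 in M-MI against sham, Npr1 0.023 in L-MI against S-MI and Mme -0.0048 in PBMCs. With median centring the log2 values were Npr2 -0.0050 in L-MI against sham. With repeated quantile normalization the log2 values were Furin 0.017 in L-MI against sham, Npr2 0.0038 in M-MI against sham, Npr1 0.012 in L-MI against S-MI and Furin 0.011 in M-MI against S-MI. With the 4 arrays apart left out the log2 values were Npr1 0.0078 in L-MI against sham, Nppc -0.019 and Npr2 0.0018 in M-MI against sham, Npr1 0.035 in L-MI against S-MI and Furin 0.0012 in M-MI against S-MI. Leaving out each array in turn in L-MI against sham gave Nppc -0.056 to 0.013, Npr1 -0.062 to 0.031 and Furin -0.022 to 0.019. Leaving out each array in turn in S-MI against sham gave Npr1 -0.029 to 0.018 and Mme -0.080 to 0.068. Leaving out each array in turn in M-MI against sham gave Nppa -0.17 to 0.21, Nppc -0.0014 to 0.080 and Npr2 -0.039 to 0.0028. Leaving out each array in turn in M-MI against S-MI gave Npr3 -0.089 to 0.11, Nppb -0.027 to 0.43, Furin -0.028 to 0.0063 and Npr2 -0.0052 to 0.036. Leaving out each array in turn in L-MI against S-MI gave Npr1 -0.052 to 0.041. Leaving out each array in turn in PBMCs gave Nppb -0.00087 to 0.076, Npr3 -0.048 to 0.023, Mme -0.020 to 0.021 and Npr2 -0.062 to 0.0065.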

Other observations

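The lists around the natriuretic peptides also held calls when the infarct sizes were compared with each other. In L-MI against M-MI, Pde3b, a phosphodiesterase that cGMP inhibits, was higher in L-MI hearts (0.43, SE 0.109, adjusted p = 0.0158) and so were Acta1, skeletal actin (0.59, SE 0.164, adjusted p = 0.029), and Cacna1g (1.18, SE 0.127, adjusted p = 3.48e-06). Hey2, a transcriptional repressor of the ventricular myocardium, was lower (-0.38, SE 0.0864, adjusted p = 0.00586). In L-MI against S-MI, 5 of the 15 measured genes of the fetal programme were called higher and 0 lower, beside 1.57% and 0.911% of all transcript clusters. These were Cacna1g (1.26), Hcn4 (1.11), Cacna1h (0.53), Ckb, the brain creatine kinase (0.44), and Xirp2, a protein of the intercalated disc (0.41). These genes were picked out because they were called.

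Among the lists of blood cells, that of T cells had 1 of 7 genes called higher in L-MI against sham in LV (Cd4, 0.76, which macrophages of the rat also carry), and the lists of B cells, neutrophils and platelets or erythroid cells had 0. In PBMCs 0 genes of the pathway and marker lists were called.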
